A study of Homo sapiens with 6 samples.

Results

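The genes described here are 7 angiogenic factor genes: VEGFA, VEGFB and VEGFC, which encode vascular endothelial growth factors, FGF2 (basic fibroblast growth factor), EDN1 (the endothelin 1 precursor), THBS1 (thrombospondin 1) and NRP1 (the co-receptor neuropilin 1). They were taken by symbol from the 11081 gene rows of the table, and each of the 7 matched 1 row. The libraries were made from T24, an established human bladder cancer line, in 2 groups of 3: cells with stable lentiviral expression of a hairpin against the long noncoding RNA BLACAT3 (shBLACAT3, labelled BLACAT3 knockdown) and cells with a control hairpin (shControl, labelled WT). Both groups had been transduced and selected with puromycin, and the labels do not say whether replicates were separate cultures or how many hairpins or clones were used, so the p-values reflect library-to-library spread that could be technical alone. BLACAT3 itself was not analysed here, so the knockdown was not checked against its level.

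Angiogenic factors are secreted by tumour cells and act mostly on nearby endothelium. VEGFA, whose gene is induced by hypoxia, acts mainly through the receptor KDR, VEGFB binds FLT1, and VEGFC drives the growth of lymphatic vessels through FLT4. FGF2 binds FGF receptors together with heparan sulfate chains, endothelin 1 constricts vessels and is mitogenic, and thrombospondin 1 is an inhibitor of angiogenesis that also activates latent TGF-beta. Neuropilin 1 binds both VEGFA and class 3 semaphorins.

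Expression was given as FPKM, fragments per kilobase of transcript scaled to library size, and the read depth behind it is unknown. The listed values summed to between 211958 and 226953 FPKM per library, and Pearson's correlation of log2(FPKM + 1) across genes was 0.954 to 0.967 between the groups, 0.975 to 0.981 within shBLACAT3 and 0.982 to 0.983 within shControl. Of 14 epithelial and urothelial markers, KRT7, KRT8, KRT18 and PPARG had values and the other 10 were not analysed here. Their summed level was 122 to 141 FPKM in shBLACAT3 libraries and 177 to 208 in shControl libraries. KRT8 averaged 22.1 ± 2.41 FPKM in shBLACAT3 cells and 60.7 ± 4.78 in shControl cells (SD, n = 3 each), and KRT18 74.2 ± 5.19 FPKM in shBLACAT3 cells and 112.0 ± 15.0 in shControl cells. Both passed the limma test given below. The call of KRT18 was lost without shControl replicate 1 or 3 or shBLACAT3 replicate 1 or 2 (adjusted p 0.055 to 0.089 in limma). The other 2 lay the other way and did not pass the test: KRT7 averaged 32.0 ± 3.45 FPKM in shBLACAT3 cells and 20.0 ± 5.62 in shControl cells, and PPARG 4.71 ± 0.307 FPKM in shBLACAT3 cells and 3.77 ± 0.434 in shControl cells. Of 11 endothelial markers only ESAM, a junction protein, was analysed, at 1.76 ± 0.413 FPKM in shBLACAT3 cells and 3.57 ± 0.0713 in shControl cells. It passed the test (adjusted p 0.015 in limma), but this call was lost without any 1 shControl library (adjusted p 0.056 to 0.064). Of 8 leukocyte markers only CD68 was analysed, at 0.372 ± 0.326 FPKM in shBLACAT3 cells and 1.04 ± 0.302 in shControl cells. CD68 entered the table through its shControl level and lay under the filter used below. With a filter at a mean of 0.1 FPKM it did not pass (adjusted p 0.12 in limma). The part of these shifts in the results below was not tested, and in bulk libraries fewer expressing cells and less RNA per cell cannot be told apart.

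FGF2 and VEGFC fell in shBLACAT3 cells, to 37.8% and 51.6% of their mean FPKM in shControl cells. EDN1 and THBS1 rose, with mean FPKM 1.59 and 1.41 times those of shControl cells. VEGFA, VEGFB and NRP1 did not pass the threshold, an adjusted p under 0.05 in limma over the 10008 genes whose 6 libraries averaged 1 FPKM or more. Thus 4 of the 7 genes were called, while 9.37% of all tested genes were. The 7 genes were chosen with earlier results of these libraries known, so such shares describe them and do not test them as a group. The groups did not overlap in the same 4 genes, and in 32.8% of all tested genes. By direction, 2 of the 7 were higher and 2 lower, against 2.57% and 6.8% of all tested genes. The median log2 fold change of the 7 genes was -0.1, and that of all tested genes was -0.0025.

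**Figure D1:**
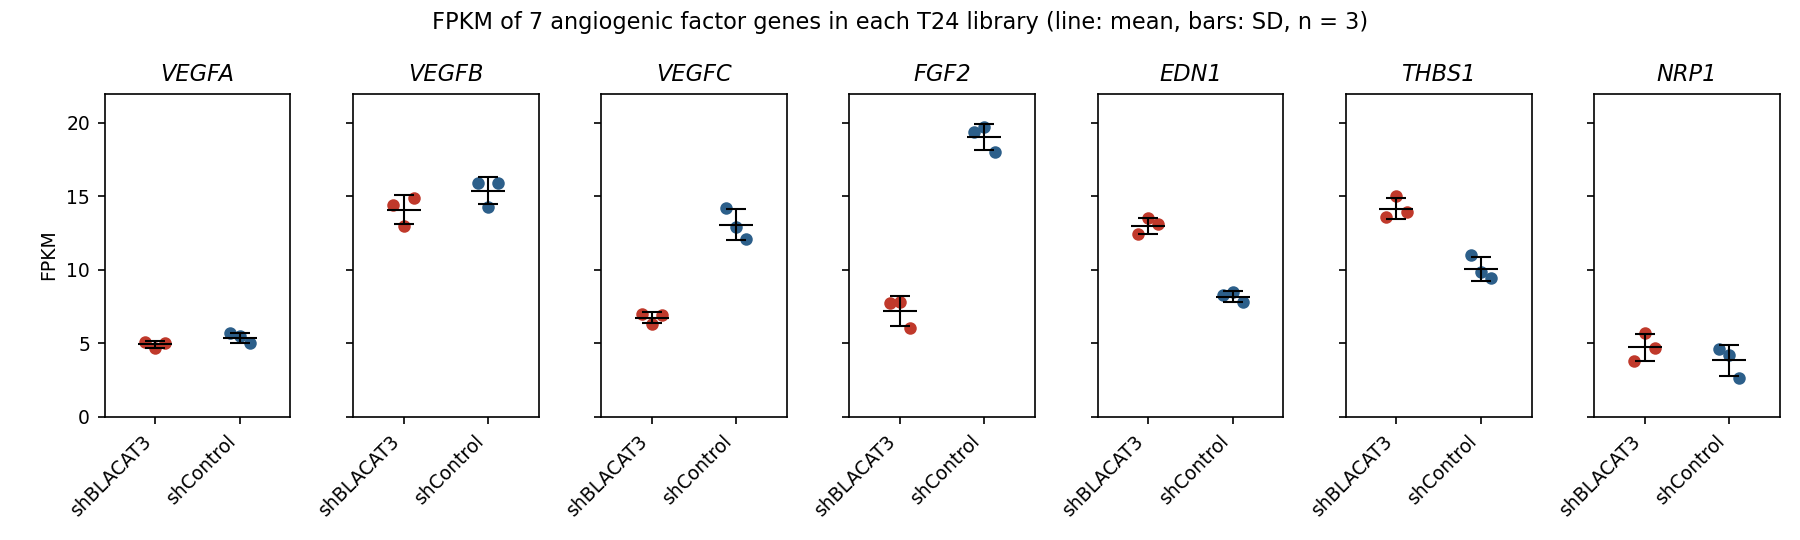
FPKM (vertical axis, from 0) of each of the 7 genes in the 3 shBLACAT3 libraries (red, left) and the 3 shControl libraries (blue, right). Points are libraries, the line is the mean and the bars the SD. FGF2 and VEGFC lie lower in all shBLACAT3 libraries, EDN1 and THBS1 lie higher, and the groups overlap for VEGFA, VEGFB and NRP1.

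**Figure D2:**
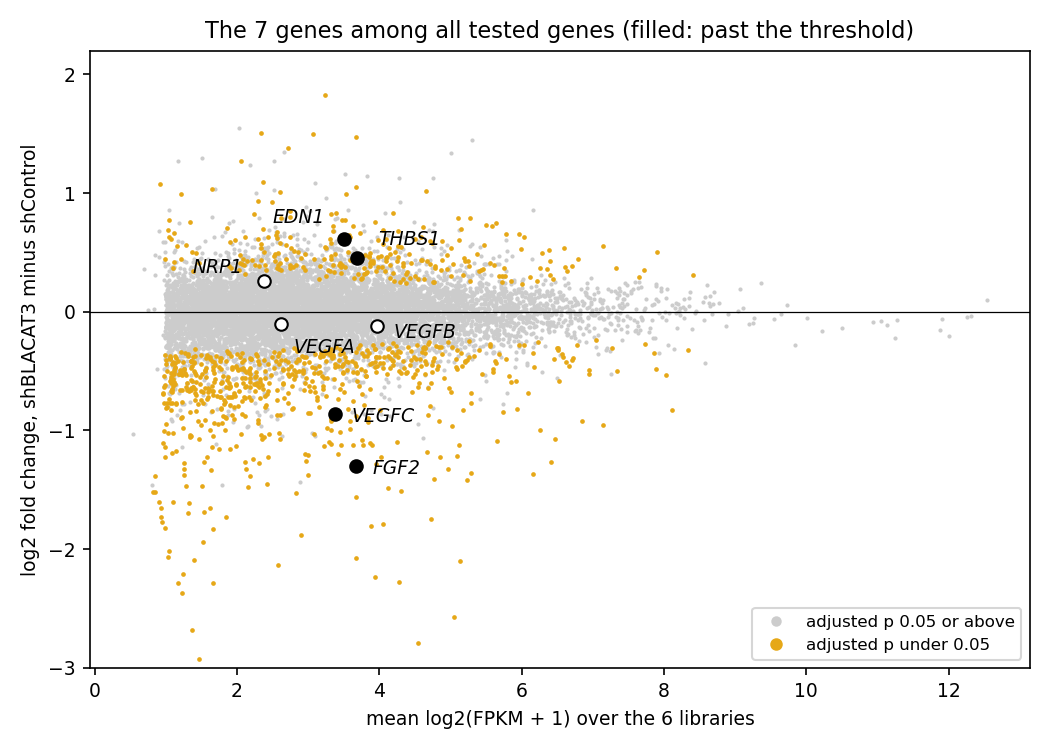
Log2 fold change (shBLACAT3 minus shControl) against the mean log2(FPKM + 1) over the 6 libraries, 1 point per tested gene, with the 7 genes in black (filled when past the threshold) and other genes past it in orange. FGF2 and VEGFC lie below most tested genes and EDN1 and THBS1 above most, and some genes lie further out on either side. A further 13 genes lie outside the plotted range of -3 to 2.2.

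The 250 bases before the start of the 4 called genes, of which 2 fell and 2 rose, are shown as a description. Whether any of these genes moved together was not tested. RefSeq windows (GRCh38.p14) were found for 5 of the 7 genes, and those of the 4 called genes are printed from 5′ to 3′ on the gene's own strand. The windows are chr4:122826581-122826830 (plus strand) for FGF2, chr4:176792923-176793172 (minus strand) for VEGFC, chr6:12290111-12290360 (plus strand) for EDN1 and chr15:39580829-39581078 (plus strand) for THBS1. For EDN1, which has 3 listed starts, the one nearest to the GENCODE 29 gene start was taken. Capitals mark matches on either strand to the GC box GGGCGG, the hypoxia response core ACGTG, the TATA box TATAAA, the TEAD motif GGAATG, the SMAD box CAGAC or the AP-1 motif TGANTCA.
FGF2: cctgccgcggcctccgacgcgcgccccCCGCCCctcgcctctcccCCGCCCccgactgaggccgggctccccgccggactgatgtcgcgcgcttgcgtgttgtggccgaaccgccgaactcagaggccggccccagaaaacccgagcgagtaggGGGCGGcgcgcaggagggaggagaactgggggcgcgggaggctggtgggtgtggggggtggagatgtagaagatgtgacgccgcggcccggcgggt
VEGFC: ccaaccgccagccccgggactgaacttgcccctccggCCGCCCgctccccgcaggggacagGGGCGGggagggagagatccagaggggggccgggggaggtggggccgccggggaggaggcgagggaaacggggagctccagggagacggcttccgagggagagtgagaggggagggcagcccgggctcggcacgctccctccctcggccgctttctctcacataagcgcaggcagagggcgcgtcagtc
EDN1: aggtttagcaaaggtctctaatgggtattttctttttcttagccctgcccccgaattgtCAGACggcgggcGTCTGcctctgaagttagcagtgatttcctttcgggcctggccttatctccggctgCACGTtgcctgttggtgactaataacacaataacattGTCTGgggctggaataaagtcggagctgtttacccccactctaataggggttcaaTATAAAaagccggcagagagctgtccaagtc
THBS1: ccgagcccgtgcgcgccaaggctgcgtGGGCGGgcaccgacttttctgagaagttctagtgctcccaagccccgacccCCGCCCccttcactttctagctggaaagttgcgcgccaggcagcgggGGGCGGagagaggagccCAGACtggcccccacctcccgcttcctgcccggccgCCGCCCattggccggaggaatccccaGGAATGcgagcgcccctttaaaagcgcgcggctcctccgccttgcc
The FGF2 and VEGFC windows held GC boxes and no other searched motif, with 3 matches in FGF2 and 2 in VEGFC. The THBS1 window held 4 GC boxes, 1 SMAD box, and 1 TEAD motif that begins 46 bases before the start. The EDN1 window held no GC box. It held a TATA box 31 bases before the start, 3 SMAD boxes and 1 hypoxia response core. None of the 4 windows held the AP-1 letters, and no matches overlapped in them. Among all 35116 windows of this length, 42.6% held a GC box, 38.0% a SMAD box, 18.5% the hypoxia response core, 11.9% the TEAD motif, 10.7% the TATA box and 6.57% the AP-1 motif. The G and C content was 75.2% for FGF2, 74.0% for VEGFC, 69.6% for THBS1 and 49.2% for EDN1, against a median of 58.0% over all windows. The window of VEGFB, which was not called, held 6 GC boxes and 1 SMAD box at a G and C content of 82.8%. A match is a description of the sequence and does not show that a factor binds there.

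Of the VEGF ligands, VEGFC (ENSG00000150630.3_2) alone passed the threshold. It stood at 7.02, 6.29 and 6.92 FPKM in shBLACAT3 replicates 1, 2 and 3, against 14.2, 12.9 and 12.1 FPKM in shControl replicates 1, 2 and 3. All 3 shBLACAT3 libraries were below the lowest shControl library by more than either group's range. The log2 fold change, on the log2(FPKM + 1) scale used for all fold changes here, was -0.86 (SE 0.08, adjusted p 0.0019 in limma), lower than in all but 1.87% of tested genes.

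VEGFA (ENSG00000112715.21_4), the best studied ligand of the family, stood at 5.11, 4.65 and 5.03 FPKM in shBLACAT3 libraries, against 5.66, 5.47 and 5.0 FPKM in shControl libraries. VEGFB (ENSG00000173511.9_2), known for effects on cell survival and lipid handling, stood at 14.4, 13.0 and 14.9 FPKM in shBLACAT3 libraries, against 15.9, 14.3 and 15.9 FPKM in shControl libraries. Both had overlapping groups with shBLACAT3 means slightly below shControl means. The log2 fold change of VEGFA was -0.1 with a 95% interval from -0.29 to 0.08 (adjusted p 0.45 in limma), and that of VEGFB was -0.12, from -0.31 to 0.07 (adjusted p 0.4). A fall of the size seen for VEGFC lies outside both intervals.

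Within each library the VEGF ligands were also compared with one another, as log2 ratios of FPKM + 1. The log2 ratio of VEGFC to VEGFA was 0.39 ± 0.015 in shBLACAT3 cells and 1.14 ± 0.046 in shControl cells (SD, n = 3 each), a difference of -0.75. That of VEGFC to VEGFB was -0.96 ± 0.039 in shBLACAT3 cells and -0.22 ± 0.13 in shControl cells, a difference of -0.74. For VEGFB to VEGFA it was 1.35 ± 0.049 in shBLACAT3 cells and 1.36 ± 0.13 in shControl cells, a difference of -0.01. The ratios with VEGFC did not overlap between the groups, and that of VEGFB to VEGFA did. A two-sided exact permutation test over the libraries gave p = 0.1 for each ratio with VEGFC, the smallest value that 3 against 3 libraries allow, and 0.8 for VEGFB to VEGFA, with adjusted p over the 3 pairs of 0.15, 0.15 and 0.8. Summed over the 3 ligands, expression was 23.9 to 26.9 FPKM in shBLACAT3 libraries and 32.7 to 35.7 FPKM in shControl libraries. VEGFC made up 25.8% to 26.5% of this sum in shBLACAT3 libraries and 36.6% to 39.7% in shControl libraries, while VEGFB made up 54.3% to 55.5% in shBLACAT3 libraries and 43.8% to 48.2% in shControl libraries. VEGFA made up 18.7% to 19.4% in shBLACAT3 libraries and 15.1% to 16.7% in shControl libraries. VEGFB was thus the most abundant of the 3 ligands in every library. The other ligands VEGFD and PGF and the receptors FLT1, KDR and FLT4 were not analysed here.

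FGF2 (ENSG00000138685.13_3) had the lowest fold change of the 7 genes. It stood at 7.71, 7.81 and 6.04 FPKM in shBLACAT3 replicates 1, 2 and 3, against 19.4, 19.7 and 18.0 FPKM in shControl replicates 1, 2 and 3. Every shBLACAT3 library lay far below every shControl library. The log2 fold change was -1.3 (SE 0.1, adjusted p 0.00082 in limma), and 0.699% of tested genes had a lower one.

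By GENCODE 29, the 3′ part of FGF2 overlaps NUDT6, a gene on the opposite strand, over 804 of 6775 exon bases of FGF2 (11.9%). The library kit keeps strand, per the labels, but whether the authors' quantification used it is not given in the sources used here. NUDT6 stood at 0.652, 0.703 and 0.814 FPKM in shBLACAT3 libraries, against 0.993, 0.94 and 1.05 FPKM in shControl libraries. Its groups did not overlap either. It lay under the filter, and with a filter at a mean of 0.1 FPKM it did not pass (log2 fold change -0.21, adjusted p 0.12 in limma).

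Of 18 other genes of the FGF system, 8 had values and 5 were tested. The threshold was passed by 1 of the 5 (20.0%, against 9.37% of all tested genes). FGF1, a ligand of all FGF receptors, fell with a log2 fold change of -0.75 (SE 0.1, adjusted p 0.007 in limma), and averaged 1.18 ± 0.171 FPKM in shBLACAT3 cells and 2.65 ± 0.3 in shControl cells (SD, n = 3 each). FGF5, the FGF ligand with the most RNA per length here, averaged 34.4 ± 3.37 FPKM in shBLACAT3 cells and 34.1 ± 1.02 in shControl cells and did not pass (adjusted p 0.96). The receptor FGFR1 stood at 0.709, 0.368 and 0.78 FPKM in shBLACAT3 libraries, against 1.56, 1.29 and 1.14 FPKM in shControl libraries. It lay under the filter and was tested, and passed, only in the fit with the lower filter (adjusted p 0.044 in limma). FGFR4 was tested and did not pass, and FGFR2 and FGFR3 were not analysed here.

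Genes for heparan sulfate, the sugar chain that holds FGF2 and VEGFA at the cell surface, had 16 tested members of 22 listed, of which 3 fell and 2 rose (5 called, 31.2%, against 9.37% of all tested genes). SDC4, the syndecan core protein with the most RNA, averaged 43.5 ± 3.08 FPKM in shBLACAT3 cells and 114.0 ± 6.38 in shControl cells (SD, n = 3 each), a log2 fold change of -1.37 (SE 0.07, adjusted p 0.00015 in limma). SDC3, another syndecan, averaged 2.95 ± 0.352 FPKM in shBLACAT3 cells and 4.96 ± 0.232 in shControl cells. HPSE, the enzyme that cuts the chains, averaged 3.24 ± 0.229 FPKM in shBLACAT3 cells and 4.43 ± 0.226 in shControl cells. The polymerase gene EXT1 rose, at 4.98 ± 0.363 FPKM in shBLACAT3 cells and 3.69 ± 0.102 in shControl cells. The glycosyltransferase gene EXTL2 rose as well, at 11.3 ± 1.76 FPKM in shBLACAT3 cells and 7.19 ± 1.02 in shControl cells. Of these calls that of SDC4 held whichever library was left out. That of SDC3 was lost without shControl replicate 1 or 3 (adjusted p 0.051 to 0.059). Those of EXT1, EXTL2 and HPSE were lost without any 1 shControl library or shBLACAT3 replicate 1, and further without shBLACAT3 replicate 3 for EXT1 and replicate 2 for EXTL2 and HPSE (adjusted p 0.062 to 0.15). The count of called members was 1 to 3 without shBLACAT3 replicate 1 or 2 or any shControl library.

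EDN1 (ENSG00000078401.6_2) rose in shBLACAT3 cells. It stood at 12.4, 13.5 and 13.1 FPKM in shBLACAT3 replicates 1, 2 and 3, against 8.25, 8.48 and 7.77 FPKM in shControl replicates 1, 2 and 3. The lowest shBLACAT3 library lay well above the highest shControl library. The log2 fold change was 0.61 (SE 0.07, adjusted p 0.0033 in limma), and 98.7% of tested genes had a lower one.

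Among 8 other genes of the endothelin system, 4 had values and 2 were tested. MME, neprilysin, a membrane peptidase that degrades endothelin 1, rose, with 3.24 ± 0.355 FPKM in shBLACAT3 cells and 2.24 ± 0.132 in shControl cells (SD, n = 3 each; adjusted p 0.048 in limma). This call was lost without any 1 shControl library or without shBLACAT3 replicate 1 or 2 (adjusted p 0.078 to 0.16). ECE1, the enzyme that releases the active peptide from its precursor, averaged 15.2 ± 2.43 FPKM in shBLACAT3 cells and 18.0 ± 1.01 in shControl cells and did not pass (adjusted p 0.24). The receptor EDNRA stood at 0.0626, 0.0295 and 0.0341 FPKM in shBLACAT3 libraries, against 0.37, 0.885 and 0.61 FPKM in shControl libraries. The second converting enzyme, ECE2, averaged 0.371 ± 0.0679 FPKM in shBLACAT3 cells and 0.714 ± 0.07 in shControl cells. Both EDNRA and ECE2 lay under the filter and were tested, and passed, only in the fit with the lower filter. The table holds rows with a mean of at least 0.501 FPKM in 1 group, so these genes entered it through their shControl level, and their direction is a description only.

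THBS1 (ENSG00000137801.10_3) rose as well. It stood at 13.6, 15.0 and 13.9 FPKM in shBLACAT3 replicates 1, 2 and 3, against 11.0, 9.82 and 9.43 FPKM in shControl replicates 1, 2 and 3. The groups did not overlap, but the gap between the nearest libraries was smaller than for EDN1. The log2 fold change was 0.46 (SE 0.08, adjusted p 0.017 in limma). This call was lost without shControl replicate 2 (adjusted p 0.073) or shControl replicate 3 (0.071), with log2 fold changes of 0.44 and 0.41. The calls of FGF2, VEGFC and EDN1 held whichever library was left out, with adjusted p of at most 0.0077, 0.013 and 0.022. GENCODE 29 places 411 exon bases of an antisense RNA and 448 of FSIP1, on the opposite strand, within THBS1 exons, and neither was analysed here.

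**Figure D3:**
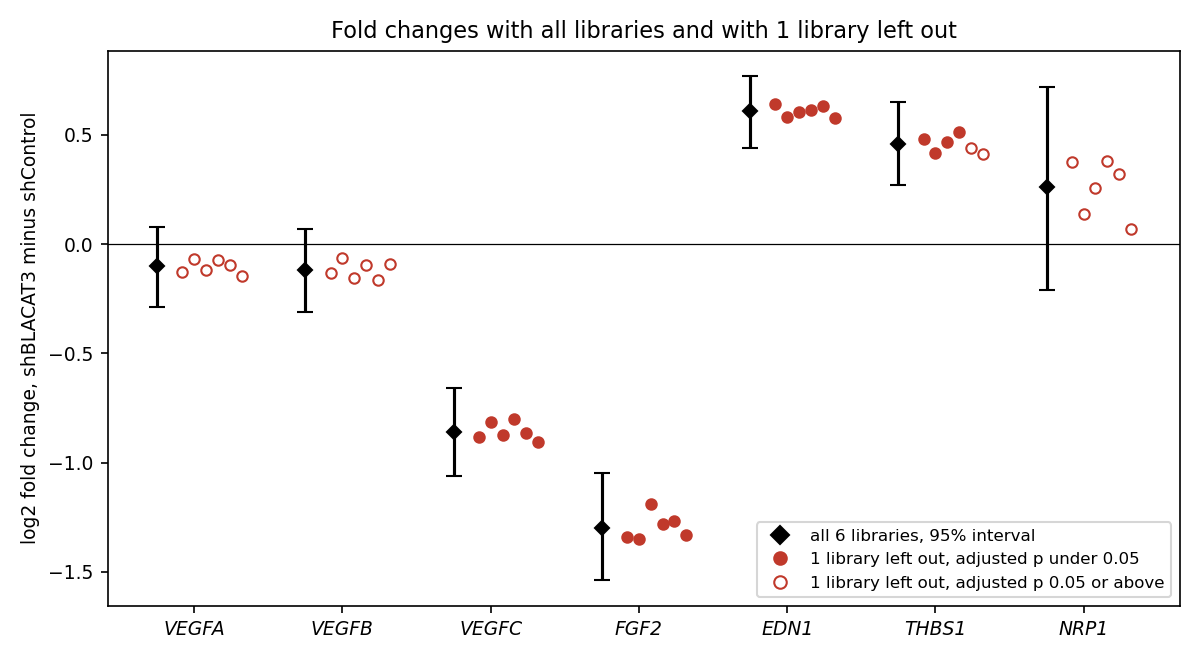
Log2 fold change (shBLACAT3 minus shControl) of the 7 genes with all 6 libraries (black diamonds, bars are 95% intervals) and with each library left out in turn (circles, filled when the adjusted p was under 0.05). All circles of a gene lie on the same side of 0, and THBS1 is the only called gene with open circles, 2 of 6.

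Of 11 listed genes of other thrombospondins and of thrombospondin receptors, 5 were tested, all for receptors, and 3 fell, while THBS1 itself rose. Of all tested genes 6.8% fell. CD47, a thrombospondin receptor that also signals to phagocytes, averaged 9.69 ± 0.63 FPKM in shBLACAT3 cells and 13.2 ± 0.586 in shControl cells (SD, n = 3 each; adjusted p 0.019 in limma). ITGB3, the beta chain of a thrombospondin-binding integrin, averaged 3.06 ± 0.0551 FPKM in shBLACAT3 cells and 5.16 ± 0.722 in shControl cells (adjusted p 0.016). CALR, calreticulin, which acts with LRP1 as a thrombospondin receptor and is foremost a chaperone, averaged 199.0 ± 20.7 FPKM in shBLACAT3 cells and 278.0 ± 5.6 in shControl cells (adjusted p 0.015). LRP1 lay under the filter, at 0.265 ± 0.0741 FPKM in shBLACAT3 cells and 0.782 ± 0.124 in shControl cells. It was tested, and passed, only in the fit with the lower filter. It too entered the table through its shControl level, so its direction is a description only. ITGAV and SDC1 were tested and did not pass. The calls of CD47 and CALR were lost without any 1 shControl library or shBLACAT3 replicate 1, and that of ITGB3 without shControl replicate 1 or 2 or shBLACAT3 replicate 1 (adjusted p 0.05 to 0.088 among the lost calls), so that 0 or 1 of the 5 was called in those settings.

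NRP1 (ENSG00000099250.17_3) varied more between libraries than the other 6 genes relative to its level. It stood at 3.8, 5.68 and 4.67 FPKM in shBLACAT3 replicates 1, 2 and 3, against 4.63, 4.18 and 2.66 FPKM in shControl replicates 1, 2 and 3. The groups overlapped, and the lowest value was that of shControl replicate 3. The log2 fold change was 0.26 with a 95% interval from -0.21 to 0.72 (adjusted p 0.45 in limma), and it was 0.07 without shControl replicate 3. In GENCODE 29 an antisense RNA, not analysed here, shares 561 bases with NRP1 exons.

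Among 13 partners of neuropilin 1, 8 were tested, 3 fell and 0 rose at this threshold in limma, with 1, the plexin gene PLXNA1, higher at an unadjusted p of 0.0093. The share of all tested genes that fell was 6.8%. NRP2, the related neuropilin that binds VEGFC, averaged 1.02 ± 0.146 FPKM in shBLACAT3 cells and 1.82 ± 0.27 in shControl cells (SD, n = 3 each; adjusted p 0.035 in limma). Its call was lost whichever library was left out (adjusted p 0.052 to 0.12). SEMA3A, a semaphorin that competes with VEGFA for neuropilin 1, averaged 1.03 ± 0.243 FPKM in shBLACAT3 cells and 1.89 ± 0.158 in shControl cells (adjusted p 0.035). This call was lost without any 1 shControl library or shBLACAT3 replicate 1 (adjusted p 0.075 to 0.13). SEMA3F, a ligand of NRP2, averaged 0.339 ± 0.121 FPKM in shBLACAT3 cells and 1.95 ± 0.239 in shControl cells (adjusted p 0.0014), and kept its call whichever library was left out. It too entered the table only through its shControl level, so its direction is a description only. Without any 1 shControl library or shBLACAT3 replicate 1, the 1 called partner was therefore SEMA3F, which carries this limit. PLXNA2, a plexin that transmits semaphorin signals, was listed at 0 in all 3 shBLACAT3 libraries and stood at 0.688, 0.562 and 0.592 FPKM in shControl libraries, through which it entered the table. SEMA3C averaged 60.0 ± 13.0 FPKM in shBLACAT3 cells and 47.7 ± 4.13 in shControl cells and did not pass (adjusted p 0.28).

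The order of the 7 genes by FPKM, which is per length and so can be compared between genes, differed between the groups. In shBLACAT3 cells the means ran from THBS1 (14.2), VEGFB (14.1) and EDN1 (13.0) through FGF2 (7.19) and VEGFC (6.74) to VEGFA (4.93) and NRP1 (4.72 FPKM). In shControl cells they ran from FGF2 (19.0) through VEGFB (15.4), VEGFC (13.1), THBS1 (10.1), EDN1 (8.17) and VEGFA (5.38) to NRP1 (3.82 FPKM). In shControl cells the ranges of no 2 neighbours in this order overlapped. In shBLACAT3 cells the ranges of THBS1 and VEGFB overlapped, as did those of VEGFB and EDN1, of FGF2 and VEGFC and of VEGFA and NRP1, while gaps lay between EDN1 and FGF2 and between VEGFC and VEGFA. FGF2 held position 4 of 7 in shBLACAT3 cells and position 1 in shControl cells, and THBS1 held position 1 in shBLACAT3 cells and position 4 in shControl cells.

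Other secreted angiogenic factors and inhibitors are given for context, from a list of 30 genes of which 22 were tested, 8 fell and 2 rose. Of all tested genes 6.8% fell and 2.57% rose. The heparin-binding growth factor MDK, midkine, averaged 7.54 ± 0.968 FPKM in shBLACAT3 cells and 15.9 ± 1.64 in shControl cells (SD, n = 3 each; adjusted p 0.0034 in limma). Its relative PTN, pleiotrophin, averaged 2.15 ± 0.497 FPKM in shBLACAT3 cells and 4.68 ± 0.586 in shControl cells (adjusted p 0.015). TGFA, a ligand of the EGF receptor, averaged 8.28 ± 0.208 FPKM in shBLACAT3 cells and 19.2 ± 0.935 in shControl cells (adjusted p 0.00021). ANGPTL4, ANG, PDGFA, CXCL10 and PLAU were the other 5 that fell. PDGFA averaged 0.837 ± 0.271 FPKM in shBLACAT3 cells and 1.57 ± 0.0795 in shControl cells. It reached the filter of 1 FPKM only with its shControl level, so its direction is a description only. CXCL10, a chemokine that inhibits vessel growth, was listed at 0 in 2 shBLACAT3 libraries and at 0.0613 FPKM in the third. In shControl libraries it stood at 5.3 to 5.87 FPKM. It entered the table through these shControl libraries alone, so its direction is a description only. TGFB2, a TGF-beta ligand, rose, with 3.53 ± 0.401 FPKM in shBLACAT3 cells and 1.2 ± 0.133 in shControl cells (adjusted p 0.0016). The chemokine gene CXCL1 rose as well, with 30.5 ± 2.16 FPKM in shBLACAT3 cells and 18.3 ± 3.4 in shControl cells (adjusted p 0.02). Calls lost when 1 library was left out were those of PDGFA and ANG (any shControl library, shBLACAT3 replicate 3, and replicate 2 for PDGFA or 1 for ANG), CXCL1 (shControl replicate 1 or 3, shBLACAT3 replicate 1 or 2), PTN (shControl replicate 1 or 3) and ANGPTL4 (shBLACAT3 replicate 1 or 2), with adjusted p of 0.051 to 0.15 among the lost calls. The count was 6 of 22 without shControl replicate 1 or 3.

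Of 8 genes that sense oxygen and control the transcription of VEGFA, 7 were tested and 0 passed the threshold in limma, 1 of them, EGLN1, with an unadjusted p under 0.05. EGLN1, a prolyl hydroxylase that marks HIF proteins for destruction, averaged 12.2 ± 0.413 FPKM in shBLACAT3 cells and 14.4 ± 0.315 in shControl cells (SD, n = 3 each; adjusted p 0.072 in limma). HIF1A, the oxygen-regulated subunit, stood at 30.3, 33.6 and 24.8 FPKM in shBLACAT3 libraries, against 48.5, 37.9 and 30.6 FPKM in shControl libraries. The groups overlapped (adjusted p 0.25). Over all 8 related lists, with each gene counted once, 23 of 64 tested genes (35.9%) passed, 18 lower and 5 higher, against 9.37% of all tested genes, with a median log2 fold change of -0.22 against -0.0025 for all tested genes. This count was 11 without shBLACAT3 replicate 1 and 9, 12 and 10 without shControl replicates 1, 2 and 3. The share is read with care, since the lists were drawn up with earlier results of these libraries known, and 42 of their 114 genes were not analysed here. Among the genes counted as lower, SEMA3F and CXCL10 entered the table through their shControl level alone. PDGFA reached the filter of 1 FPKM only with its shControl level.

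**Figure D4:**
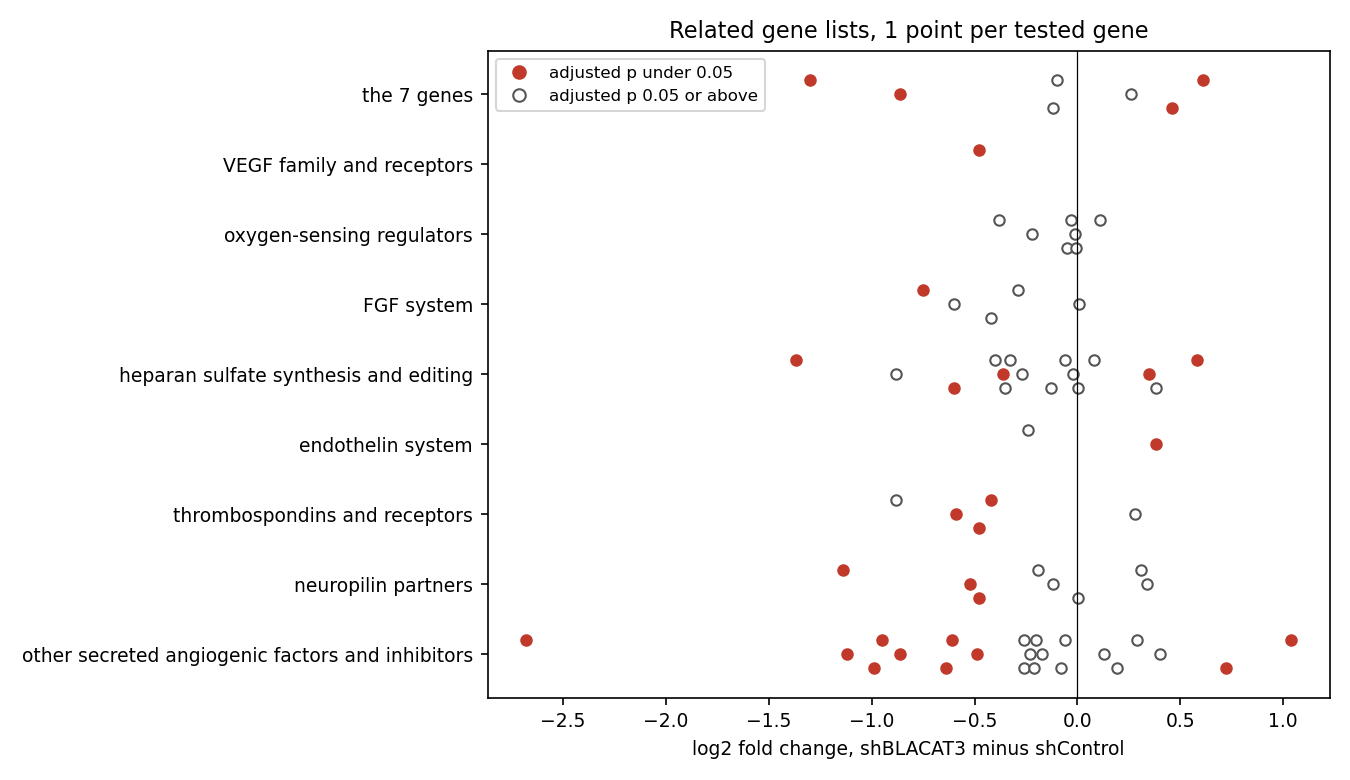
Log2 fold change (horizontal axis, shBLACAT3 minus shControl) of the 7 genes (top row) and of the tested members of 8 related gene lists, 1 point per gene, filled when the adjusted p was under 0.05. Filled points lie on both sides of 0 for the 7 genes, for the heparan sulfate genes and for the other secreted factors, and the leftmost point is CXCL10 at -2.68.

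The genes with the most similar profiles were found by the Euclidean distance between log2(FPKM + 1) values over the 6 libraries, each less its own mean. Nearest to FGF2 were STC1, a secreted glycoprotein hormone (distance 0.14), the antiviral zinc finger gene ZC3HAV1 (0.16) and SLFN5 (0.22). Nearest to VEGFC were the transcription factor gene TCF7L1 (0.11), PDLIM7 (0.14) and SFR1 (0.14). Nearest to EDN1 were RHOBTB3 (0.1), the stress granule gene G3BP1 (0.11) and PMEPA1 (0.13), an inhibitor of TGF-beta signalling. Nearest to THBS1 were the lysophosphatidic acid receptor gene LPAR1 (0.11), the kinase gene SIK1 (0.12) and INAFM2 (0.13). All 12 of these genes were past the threshold, against 9.37% of all tested genes. They were picked for likeness to called genes in the same libraries, so this count was nearly fixed in advance and tests nothing. TCF7L1 averaged 0.538 FPKM in shBLACAT3 cells and 1.69 in shControl cells, and reached the filter of 1 FPKM only with its shControl level. For the genes that did not pass, the nearest were GPR107, SETDB1 and PGAP6 for VEGFA (0.06 to 0.064), SERF2, PPIF and MRPL16 for VEGFB (0.035 to 0.059), and NMRAL1, MTERF4 and C3orf14 for NRP1 (0.25 to 0.28). With 6 libraries in 2 groups, such distances mostly reflect the size of the group difference.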

How the data were processed

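RNA-seq was analysed for 6 T24 libraries, 3 shBLACAT3 and 3 shControl. Cutadapt, HISAT2 2.1.0 and StringTie are listed per the submitters' processing notes, with no role or order. Genome build, annotation and strand setting were not given in those sources. The deposited values were read as FPKM, since they are not whole, the columns sum to different totals between 211958 and 226953, and StringTie is listed. Depth is unknown, so no counting interval is given. Every row had a group mean of at least 0.501 FPKM in 1 group, so genes low in both were not analysed here.

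Column names were read as NC for the control hairpin and SH for the hairpin against BLACAT3. Of 11081 rows, 11007 were matched to symbols by Ensembl identifier without its version. Rows of one symbol were summed. The 10008 genes averaging 1 FPKM or more entered limma 3.58.1 (R 4.3.3) as log2(FPKM + 1). The model held group only, with a mean-variance trend, and two-sided p-values were adjusted over all tested genes by Benjamini-Hochberg, at 0.05. Fold changes on this scale understate those of low genes. Ratios of the VEGF ligands, taken on FPKM + 1, were tested by exact permutation (scipy 1.17.1). Named genes were the 7 genes, NUDT6, the called members of each related list (or the 2 with the smallest p), the 3 nearest profiles and leading markers. Other genes, chiefly those under the filter or not passing, were named after their values were seen. The members and lists were chosen with earlier results of these data known, and 1 gene of the secreted factor list is not reported here or counted in it. Alternatives were the replicate block, a pseudocount of 0.1, a filter at 0.1 FPKM or none, median scaling, quantile normalization, no trend, array weights, rows of one symbol tested singly, and each library left out. Promoter sequences are from RefSeq, and overlaps from GENCODE 29. The table carries no coordinates, so gene positions are not given beyond the promoter windows. Figures were drawn with matplotlib 3.10.9.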

Additional observations from a re-analysis of the deposited data

How the results depend on the processing

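No gene-level fold change among the 48 quantities recomputed changed sign under any alternative, and the calls of FGF2, VEGFC and EDN1 and the missed calls of VEGFA, VEGFB and NRP1 held in all of them. THBS1 had a log2 fold change of 0.457 with the replicate block, where its call was lost (adjusted p 0.055 in limma), and 0.415 to 0.514 with 1 library left out. Same-numbered libraries of the groups had correlations of their deviations from the group means of 0.1, 0.117 and 0.0896. These were not all above 0.1, so the numbers were not taken to pair the libraries. All 6 libraries still correlated best with their own number, with at most 0.0239 between unlike numbers, so a pairing remains possible. The replicate block gave 612 called genes in place of 938, 0 in the VEGF family and endothelin lists and 2 in the heparan sulfate list. With the block the calls of NRP2, EXT1, EXTL2, HPSE, MME, PDGFA and ANG were lost too (adjusted p 0.055 to 0.11 in limma). That of PDGFA was also lost with a pseudocount of 0.1, quantile normalization or array weights (adjusted p 0.057 to 0.067). Quantile normalization gave 0 in the VEGF family list. A filter at 0.1 FPKM and no filter test the same 11079 genes, and both gave 1186 calls among them. Both gave 2 calls in the FGF list and 3 in the endothelin list, 2 of the latter for genes that entered the table through their shControl level. The log2 ratio of VEGFC to VEGFA differed by -0.819 with a pseudocount of 0.1, and the difference for VEGFB to VEGFA, near 0, ran from -0.0716 to 0.0555 with 1 library left out. With 1 library left out, calls ranged over 387 to 1315 for all genes, 9 to 21 for all related lists, 0 to 0 for the VEGF family, 0 to 1 for endothelin, 1 to 5 for heparan sulfate, 1 to 2 for neuropilin partners, 0 to 3 for thrombospondin receptors and 6 to 9 for other secreted factors. With shBLACAT3 replicate 3 left out, 55.7% of calls were lower, against 72.6% with all libraries. The cause of these moves was not tested. Median scaling and quantile normalization moved the median log2 fold change of all genes to 0.0029 and 0.026. Unknown depth limits what can be said of genes near 0 FPKM.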
